A study of Homo sapiens with 4 samples.

Results

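The nuclear genes of respiratory complexes II to V and of cytochrome c were described in H1975 cells, a human lung adenocarcinoma line, kept in hypoxia or in normoxia. The members were the genes whose symbol was SDHA, SDHB, SDHC, SDHD, CYC1 or CYCS, or began with UQCR, with COX4, COX5, COX6, COX7 or COX8, or with ATP5. Of the 15562 genes in the deposited RNA-seq table, 48 met this rule, namely 4 of complex II, 10 of complex III, cytochrome c, 14 rows listed with complex IV and 19 with complex V. Symbols alone chose them, and no measured value did. The hypoxia group was 1 RNA-seq library from cells that spent 24 h under 1% O2, 5% CO2 and 94% N2, and the normoxia group was 1 RNA-seq library from cells kept in normoxia with 5% CO2. Both groups were wild-type H1975 cells grown in RPMI medium with fetal bovine serum and penicillin-streptomycin. No condition was repeated, so every difference describes 2 libraries, carries only its 95% counting interval, and has no p-value.

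The respiratory chain passes electrons from nutrients to oxygen and stores the energy as a proton gradient across the inner mitochondrial membrane. Complex II, succinate dehydrogenase, is also an enzyme of the citric acid cycle. It feeds electrons to ubiquinone, complex III moves them from ubiquinol to cytochrome c, complex IV hands them to oxygen, and complex V uses the gradient to make ATP. Complex II is encoded in the nucleus alone, while complexes III, IV and V also hold subunits encoded by mitochondrial DNA. Cells short of oxygen are known to limit the entry of pyruvate into the citric acid cycle and, in some cell types, to exchange subunits of complex IV. The mitochondrially encoded subunits MT-CYB, MT-CO1, MT-CO2, MT-CO3, MT-ATP6 and MT-ATP8, and the isoforms COX4I2, COX6A2 and COX7B2, were not analysed here.

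The start regions of many members held short sequences that the rule did not use. RefSeq (GRCh38.p14) gave windows of 300 bases, 250 before to 50 after the annotated start, for 37 of the 48 members. The members without a window were SDHC, UQCRB, CYC1, UQCRHL, COX6C, COX7A1, ATP5F1B, ATP5MC3, ATP5MF, ATP5F1D and ATP5MGL. Letters searched on both strands were CCGGAAG (the core bound by GABP and other ETS factors), GCGCATG (part of the NRF1 motif), AAGATGG (the YY1 letters), ACGTG (the core that hypoxia-inducible factors bind) and TATAAA (the TATA box). CCGGAAG lay in 39.5% of the 43 member windows, in 16.9% of windows of all tested genes and in 10.3% of all windows. GCGCATG lay in 23.3%, 6.51% and 4.43% of these windows, and AAGATGG in 23.3%, 6.92% and 5.84%. ACGTG lay in 23.3% of member windows, 25.3% of windows of tested genes and 21.4% of all windows, and TATAAA in 6.98%, 6.17% and 11.5%. Counted by gene, 16 of 37 members held CCGGAAG, 9 held GCGCATG, 9 held the YY1 letters and 9 held the hypoxia core. In that order these are 43.2%, 24.3%, 24.3% and 24.3% of members. Of the 10426 tested genes with a window, 22.5%, 8.72%, 9.34% and 32.2% held them. A match describes letters and is not a binding site.

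Windows of 6 members are given from 5′ to 3′ on the strand of the gene, with every match to a searched motif in capitals. SDHB, the iron-sulfur subunit of complex II, is shown for a window that holds the NRF1, ETS and YY1 letters (chr1:17053983-17054282, minus strand). SDHD, a membrane anchor of complex II and 1 of its higher members, is shown for NRF1 letters that overlap on both strands and an ETS core read as CTTCCGG (chr11:112086623-112086922, plus strand). CYCS, cytochrome c, is shown for the NRF1 letters (read as CATGCGC) and the hypoxia core (read as CACGT, its reverse complement; chr7:25125211-25125510, minus strand). UQCR11, the lowest well-counted member of complex III, is shown for the ETS core on both strands and for hypoxia cores that overlap as CACGTG (chr19:1605413-1605712, minus strand). COX6B1, the highest member of complex IV, is shown for 1 ETS core (chr19:35648073-35648372, plus strand). ATP5MG, the lowest member of complex V with a window, is shown for the YY1 letters (read as CCATCTT) and an ETS core (chr11:118401356-118401655, plus strand).
SDHB: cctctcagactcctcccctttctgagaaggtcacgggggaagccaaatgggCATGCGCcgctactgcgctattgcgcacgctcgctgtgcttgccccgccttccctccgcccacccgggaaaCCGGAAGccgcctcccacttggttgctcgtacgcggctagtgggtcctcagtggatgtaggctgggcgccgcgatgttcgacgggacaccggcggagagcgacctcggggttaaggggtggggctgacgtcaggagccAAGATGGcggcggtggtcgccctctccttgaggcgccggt
SDHD: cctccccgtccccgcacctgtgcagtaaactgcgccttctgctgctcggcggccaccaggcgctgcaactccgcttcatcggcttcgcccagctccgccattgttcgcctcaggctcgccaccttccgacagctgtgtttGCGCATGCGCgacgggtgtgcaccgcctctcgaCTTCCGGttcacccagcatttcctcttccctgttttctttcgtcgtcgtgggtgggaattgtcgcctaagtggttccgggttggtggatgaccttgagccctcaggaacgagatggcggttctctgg
CYCS: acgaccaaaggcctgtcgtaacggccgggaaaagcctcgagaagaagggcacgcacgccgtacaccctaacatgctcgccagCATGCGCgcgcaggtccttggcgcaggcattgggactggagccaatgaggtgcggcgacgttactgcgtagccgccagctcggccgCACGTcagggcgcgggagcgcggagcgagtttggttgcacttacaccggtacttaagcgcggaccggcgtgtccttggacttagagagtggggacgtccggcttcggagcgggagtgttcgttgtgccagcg
UQCR11: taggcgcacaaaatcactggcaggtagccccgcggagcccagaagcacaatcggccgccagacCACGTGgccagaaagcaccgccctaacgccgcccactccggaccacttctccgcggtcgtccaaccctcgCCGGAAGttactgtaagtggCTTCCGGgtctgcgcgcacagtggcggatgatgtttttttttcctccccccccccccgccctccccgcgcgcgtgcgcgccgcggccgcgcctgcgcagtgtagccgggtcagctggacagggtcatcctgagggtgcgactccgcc
COX6B1: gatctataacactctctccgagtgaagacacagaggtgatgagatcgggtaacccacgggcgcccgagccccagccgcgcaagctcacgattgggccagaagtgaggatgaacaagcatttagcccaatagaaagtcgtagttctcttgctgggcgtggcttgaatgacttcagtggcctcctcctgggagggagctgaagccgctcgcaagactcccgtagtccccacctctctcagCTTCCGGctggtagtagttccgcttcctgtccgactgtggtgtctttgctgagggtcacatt
ATP5MG: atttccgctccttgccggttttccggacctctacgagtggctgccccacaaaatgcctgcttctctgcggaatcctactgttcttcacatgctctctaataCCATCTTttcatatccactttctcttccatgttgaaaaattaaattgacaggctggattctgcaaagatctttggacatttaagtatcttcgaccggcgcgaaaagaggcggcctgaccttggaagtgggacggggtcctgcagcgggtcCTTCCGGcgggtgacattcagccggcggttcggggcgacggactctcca
Among the 6 windows the CCGGAAG core stood in those of SDHD and COX6B1, which were higher, of UQCR11 and ATP5MG, which were lower, and of SDHB, but not in that of CYCS, which was lower. The 9 tested members whose window held ACGTG had a median log2 ratio of hypoxia to normoxia of -0.07, and the 27 whose windows lacked it had a median of -0.05.

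The hypoxia library held 18943320 counts and the normoxia library 17643836. Counts were expressed as a rate per library total (CPM), and the 12725 genes that reached a CPM of 1 in either library were tested, after scaling by the trimmed mean of M values (TMM). The 10 genes listed to check the hypoxia label had a median log2 ratio of 0.64 and 10 of 10 lay above 0. Of their intervals 9 lay wholly above 0, against 15.0% over all tested genes, and that of ADM included 0 (-0.10 to 0.62). The list was made with earlier results of these data known, so it is not an independent check of the label. All 6 epithelial markers were detected, and their summed counts were 154923 in hypoxia and 160808 in normoxia, with KRT7 lower at 20530 counts in hypoxia against 25803 in normoxia. Summed counts of 5 fibroblast markers were 2216 in hypoxia and 2017 in normoxia, those of 3 endothelial markers 99 in hypoxia and 97 in normoxia, and those of 3 leukocyte markers 4465 in hypoxia and 4251 in normoxia. Single markers moved both ways within these sums. CD68, most of the leukocyte sum, had 4148 counts in hypoxia against 3849 in normoxia, whereas CD14 had 315 in hypoxia against 402 in normoxia, which is -0.44 (-0.66 to -0.23) on the log2 scale. COL1A1, most of the fibroblast sum, had 1800 counts in hypoxia against 1579 in normoxia, whereas COL1A2 had 226 in hypoxia against 271 in normoxia, which is -0.35 (-0.62 to -0.09) on the log2 scale. PTPRC and the endothelial marker VWF each had 2 counts in hypoxia against 0 in normoxia. TEK, CD3E and LYZ were not analysed here. The part of these markers in the results was not tested. In bulk RNA, fewer cells of a kind and less RNA per cell cannot be told apart.

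Transcripts of complexes III, IV and V and of cytochrome c were slightly lower in hypoxia, and those of complex II were not. Other genes of similar count and length were lower by a like amount for complexes III, IV and V, with median log2 ratios of -0.05, -0.06 and -0.05, but those similar to CYCS were not, at 0.03. Since the hypoxia library is the deeper one, equal counts in both correspond to a log2 ratio of -0.09. Of the 48 members 45 passed the filter, and 43 had 100 or more counts in both libraries. The 45 had a median log2 ratio of -0.06, and 37 of them lay below 0, against 49.3% of all tested genes below 0 and a median of 0.0033 over all tested genes. The counting interval lay wholly below 0 for 15 members and wholly above 0 for 3, and it included 0 for 27. Across all tested genes 14.0% had an interval wholly below 0 and 15.0% wholly above. Because deep genes have narrow intervals, a background of like depth was taken from the 4200 other genes that reached 1000 counts in each library, of which 20.9% lay wholly below and 22.1% wholly above. The 41 members at that depth had shares of 36.6% below and 7.32% above.

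The differences were small. No member that passed the filter had a ratio of 1.2 or more in either direction with an interval excluding 1 (0 of 45), whereas 4.87% of tested genes were higher and 4.58% lower by that rule. At a ratio of 2 the members' count was 0 of 45 in both directions, against 0.472% of genes higher and 0.440% lower. All members together held 141330 counts in hypoxia against 136995 in normoxia, which is 0.746% and 0.776% of all counts and a log2 ratio of -0.05 (-0.06 to -0.04). The sum of their FPKM, counts scaled to gene length and library total as the authors deposited them, was 5804 in hypoxia and 6095 in normoxia. Taken within each library, the median FPKM of the tested members was 96.6 in hypoxia (ATP5MC1) and 106 in normoxia (ATP5MF). These medians fall on different genes, so they do not give the ratio of a gene. The median over all tested genes was 7.71 FPKM in hypoxia and 7.73 in normoxia.

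**Figure D1:**
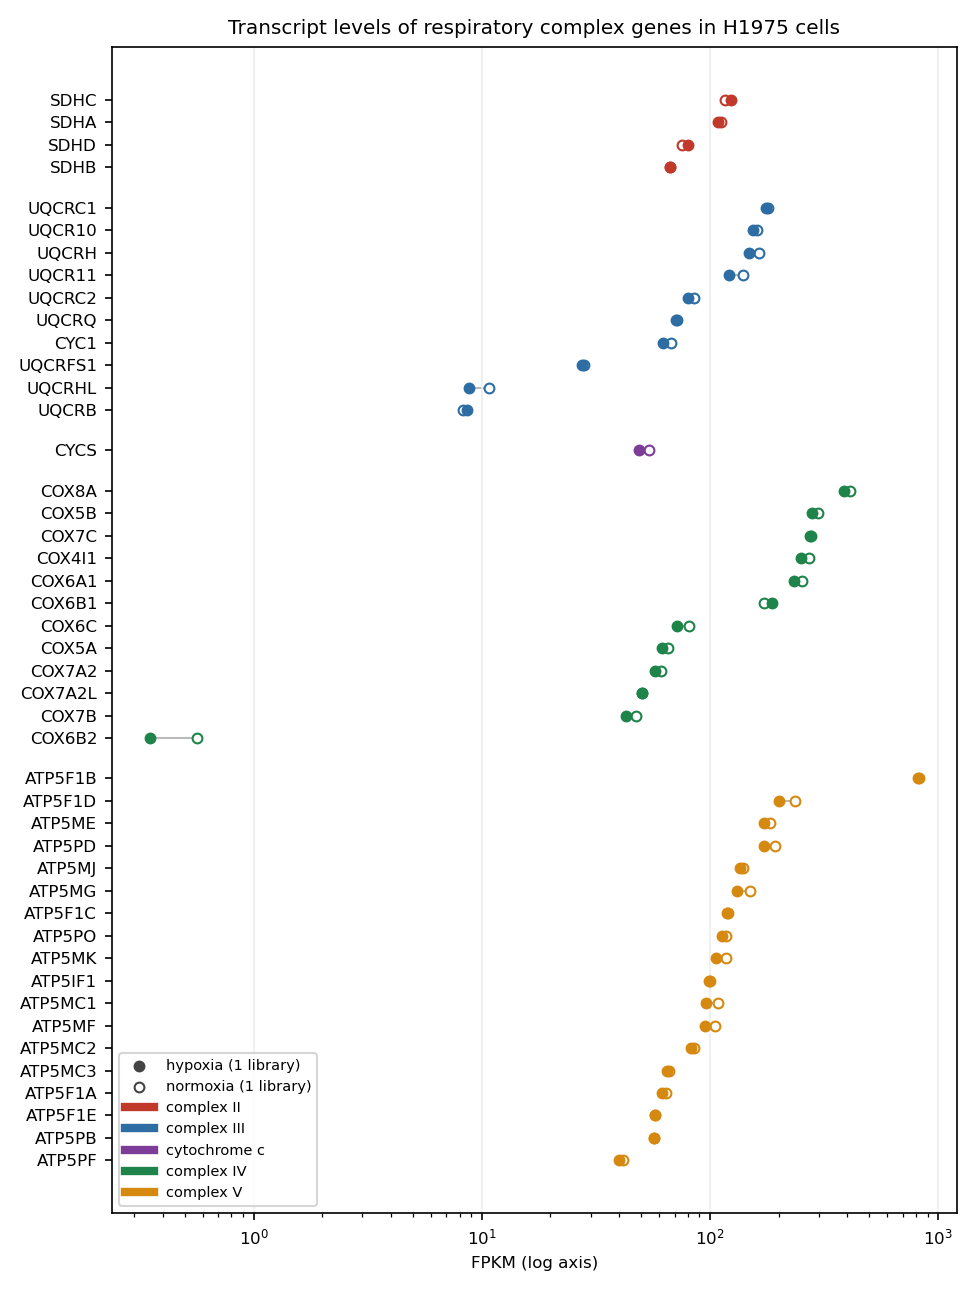
FPKM of the 45 members that passed the filter, on a log axis, grouped by complex and ordered by level; filled points are the hypoxia library and open points the normoxia library. The points of most genes nearly coincide, and levels run from COX6B2 at 0.352 FPKM in hypoxia and 0.567 in normoxia to ATP5F1B at 814 and 821.

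The levels of the members spanned a wide range that both libraries shared, as the plot of FPKM by gene shows. ATP5F1B, the catalytic beta subunit of ATP synthase, was highest at 814 FPKM in hypoxia and 821 in normoxia. The small complex IV subunit COX8A followed at 388 FPKM in hypoxia and 411 in normoxia. Among members with 100 or more counts the lowest was UQCRB, a small subunit of complex III, at 8.62 FPKM in hypoxia and 8.26 in normoxia. The length implied for UQCRB by its counts and FPKM was 8710 bases, the longest of any member. Over the 43 well-counted members the log2 FPKM of the hypoxia library correlated with that of the normoxia library with r = 0.998 across genes, which are not independent replicates. Within each library the level was higher for shorter members, with a Spearman rho between log2 FPKM and log2 length of -0.66 in hypoxia and -0.67 in normoxia, a description in which length also enters the FPKM itself.

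How reads were assigned limits single members. Pseudogenes of 33 of the 48 members are named in RefSeq, and 35 were held uncertain for copies of any kind. With those 35 left out, 11 well-counted members remained, of which 4 had intervals wholly below 0 and 0 above. Across all tested genes the shares were 14.0% below and 15.0% above. All of the 11 but ATP5ME reached 1000 counts in each library, and other genes of that depth had shares of 20.9% below and 22.1% above. SDHC, SDHD and COX6B1, the only members with intervals wholly above 0, were all among the 35, so none above could remain. The annotated spans of 10 members overlap another protein-coding gene, among them ATP5F1B with BAZ2A, ATP5PF with GABPA, ATP5PD with KCTD2, ATP5MK with TAF5 and UQCRQ with GDF9. Strand use in the counting is not stated in any source used here, so reads of such overlaps could not be told apart.

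Complex II had 3 of 4 genes above 0, with a median log2 ratio of 0.05, 2 intervals wholly above 0 and none below. SDHC (chr1:161314381-161363206, GRCh38.p14), a membrane anchor that helps form the ubiquinone site, had 3055 counts in hypoxia against 2687 in normoxia, which is 0.09 (0.02 to 0.17) on the log2 scale. SDHD, the other anchor, had 2228 counts in hypoxia against 1963 in normoxia, at a log2 ratio of 0.09 (0.0019 to 0.18). Both anchors were higher in hypoxia beyond counting error, although the interval of SDHD included 0 when total counts or upper quartile scaling replaced TMM. SDHB, whose iron-sulfur clusters carry electrons to the membrane, had 1280 counts in hypoxia against 1198 in normoxia, which is 0.0029 (-0.11 to 0.12) on the log2 scale. SDHA, the flavoprotein that oxidises succinate, had 8684 counts in hypoxia against 8284 in normoxia, at a log2 ratio of -0.02 (-0.07 to 0.02). Neither of these matrix-facing subunits differed beyond counting error. All 4 complex II genes have pseudogenes named in RefSeq, from 1 for SDHB to 7 for SDHD, so their counts are uncertain where reads could be split between copies.

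Counted as a share of all members' reads, complex II made up 10.8% in hypoxia (exact 95% interval 10.6 to 11.0) and 10.3% in normoxia (10.2 to 10.5). Its summed counts were 15247 in hypoxia and 14132 in normoxia, giving a log2 ratio of 0.02 (-0.02 to 0.05). The ratio of complex II counts to those of the other 44 members was higher in hypoxia by 0.07 on the log2 scale (0.04 to 0.11). Set against single complexes, it was higher by 0.08 (0.04 to 0.13) against complex III, 0.08 (0.04 to 0.12) against complex IV and 0.06 (0.02 to 0.09) against complex V. SDHA, the deepest of the 4, had the lowest ratio of them, and without it the value was 0.13 (0.08 to 0.18), a step chosen after seeing the data. Without ATP5F1B among the other members it was 0.09 (0.05 to 0.12). These intervals come from a normal approximation to the log of the odds ratio and cover counting error only.

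Complex III had 9 of 10 genes below 0, with a median log2 ratio of -0.06 and 3 intervals wholly below 0. UQCR11, a small accessory subunit, had 2985 counts in hypoxia against 3208 in normoxia, which is -0.20 (-0.27 to -0.12) on the log2 scale. UQCRH, the acidic hinge subunit that helps cytochrome c dock, had 1919 counts in hypoxia against 1974 in normoxia, at a log2 ratio of -0.13 (-0.22 to -0.04). CYC1, cytochrome c1, had 2115 counts in hypoxia against 2147 in normoxia, which is -0.11 (-0.20 to -0.03) on the log2 scale. These 3 genes were the ones lower in hypoxia beyond counting error. UQCRFS1, the Rieske iron-sulfur protein, had 1606 counts in hypoxia against 1524 in normoxia, at a log2 ratio of -0.02 (-0.12 to 0.09). The core proteins UQCRC1 at -0.02 and UQCRC2 at -0.07, and the small subunits UQCRQ at -0.0015 and UQCR10 at -0.05, had intervals that included 0. UQCRB was the highest gene of the complex, with 1423 counts in hypoxia against 1269 in normoxia, which is 0.07 (-0.04 to 0.18) on the log2 scale.

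UQCRHL, an intronless copy of UQCRH, had 90 counts in hypoxia against 102 in normoxia, at a log2 ratio of -0.27 (-0.70 to 0.15). It accounted for 5.63% of the FPKM of the hinge pair in hypoxia and 6.17% in normoxia. Reads of such near-identical copies cannot be assigned with confidence, and its counts may include reads of UQCRH.

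Cytochrome c itself was lower. CYCS, which shuttles electrons between complexes III and IV and also triggers apoptosis when released, had 5044 counts in hypoxia against 5177 in normoxia, which is -0.13 (-0.19 to -0.07) on the log2 scale. Its level was 49.0 FPKM in hypoxia and 54.0 in normoxia. Its counts relative to those of all other members were lower in hypoxia by a log2 value of -0.09 (-0.14 to -0.03). CYCS has 45 pseudogenes named in RefSeq, the most of any member, so its value is uncertain.

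Complex IV had 10 of 12 tested genes below 0, with a median log2 ratio of -0.08, 6 intervals wholly below 0 and 1 wholly above. COX6B1, which faces the intermembrane space at the cytochrome c side, was the exception, with 1722 counts in hypoxia against 1489 in normoxia, at a log2 ratio of 0.12 (0.02 to 0.22). It was the highest of all 45 tested members, and it has 7 pseudogenes named in RefSeq. COX6C, an accessory membrane subunit, was the lowest well-counted gene of the complex, with 1255 counts in hypoxia against 1323 in normoxia, which is -0.17 (-0.28 to -0.06) on the log2 scale. COX7B, another small accessory subunit, had 1978 counts in hypoxia against 2038 in normoxia, at a log2 ratio of -0.14 (-0.23 to -0.05). COX4I1, the ubiquitous form of the regulatory subunit that binds ATP, had 5338 counts in hypoxia against 5389 in normoxia, which is -0.11 (-0.16 to -0.05) on the log2 scale.

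The accessory subunits with intervals wholly below 0 also included COX6A1 at a log2 ratio of -0.11, COX5B at -0.08 and COX8A at -0.08. COX5A at -0.07, COX7A2 at -0.07 and COX7C at -0.0013 did not differ beyond counting error. COX7A2L, which helps join complexes III and IV into supercomplexes, had 2442 counts in hypoxia against 2283 in normoxia, at a log2 ratio of 0.0045 (-0.08 to 0.09). The isoforms known from testis or muscle were scarce in both libraries. COX6B2, the testis form of COX6B1, had 14 counts in hypoxia against 21 in normoxia, which is -0.68 (-1.77 to 0.37) on the log2 scale, and it made up 0.189% of the pair's FPKM in hypoxia and 0.327% in normoxia. COX7A1, the muscle form of COX7A2, had 0 counts in hypoxia, which allows up to 3, and 1 in normoxia, and COX8C, the testis form of COX8A, had 1 count in each. COX7A1 and COX8C were under the filter and get no ratio.

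Complex V had 16 of 18 tested genes below 0, with a median log2 ratio of -0.05, 5 intervals wholly below 0 and none above. The sum of all its members was 69434 counts in hypoxia against 67003 in normoxia, at a log2 ratio of -0.04 (-0.06 to -0.03). ATP5F1B made up a large part of it, with 27117 counts in hypoxia against 25492 in normoxia, which is -0.0035 (-0.03 to 0.02) on the log2 scale. The other large subunit of the F1 head, ATP5F1A (alpha), had 7459 counts in hypoxia against 7222 in normoxia, at a log2 ratio of -0.05 (-0.09 to 0.00086). In the central stalk ATP5F1C (gamma) was at -0.01 and ATP5F1E (epsilon) at 0.01, both with intervals that included 0. ATP5F1D (delta, chr19:1241751-1244825, GRCh38.p14) was the lowest well-counted member of all complexes, with 2668 counts in hypoxia against 2910 in normoxia, which is -0.22 (-0.29 to -0.14) on the log2 scale. No pseudogene of ATP5F1D is named in RefSeq.

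The peripheral stalk and membrane part of complex V had 11 of 12 genes below 0 and a median log2 ratio of -0.07. ATP5MG (subunit g), which helps ATP synthase form dimers, had 2794 counts in hypoxia against 2958 in normoxia, at a log2 ratio of -0.17 (-0.25 to -0.10). ATP5PD (subunit d of the peripheral stalk) had 1988 counts in hypoxia against 2080 in normoxia, which is -0.16 (-0.25 to -0.07) on the log2 scale. ATP5MK, also called DAPIT, had 1732 counts in hypoxia against 1768 in normoxia, at a log2 ratio of -0.12 (-0.22 to -0.03). These 3 and ATP5MC1 were lower in hypoxia beyond counting error. The subunits f (ATP5MF) at -0.14, e (ATP5ME) at -0.07, OSCP (ATP5PO) at -0.06, F6 (ATP5PF) at -0.05 and the small membrane subunit ATP5MJ at -0.04 had intervals that included 0. The highest gene of the complex was ATP5PB (subunit b), with 2826 counts in hypoxia against 2625 in normoxia, which is 0.01 (-0.06 to 0.09) on the log2 scale. ATP5MGL, a copy of ATP5MG, had 2 counts in hypoxia against 4 in normoxia and was under the filter.

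The counts of the 5 F1 subunits relative to those of these 12 genes were higher in hypoxia by 0.05 on the log2 scale (0.02 to 0.08). Summed counts were 43705 in hypoxia and 41671 in normoxia for the F1 subunits, and 24641 in hypoxia and 24306 in normoxia for the stalk and membrane genes. ATP5F1B alone held 27117 of the F1 counts in hypoxia and 25492 in normoxia, and the contrast without it was not computed. The contrast therefore mainly describes ATP5F1B and does not hold for each F1 subunit, since ATP5F1D was at -0.22. The median implied length was 1759 bases for the F1 genes and 870 for the stalk and membrane genes. The part of length in this contrast was not tested. ATP5IF1, which blocks ATP hydrolysis by the enzyme when the membrane potential is lost, had 1086 counts in hypoxia against 1022 in normoxia, at a log2 ratio of -0.0050 (-0.13 to 0.12). ATP5MC1, ATP5MC2 and ATP5MC3 encode the same mature subunit of the rotating c ring with different import signals. ATP5MC1 had 1054 counts in hypoxia against 1102 in normoxia, which is -0.16 (-0.28 to -0.03) on the log2 scale, and held 39.6% of the FPKM of the trio in hypoxia and 41.8% in normoxia. In counts, where its short transcript weighs less, it was the smallest of the trio, with 12.4% in hypoxia and 13.4% in normoxia. ATP5MC2 was at a log2 ratio of -0.03 and ATP5MC3 at -0.02. The counts of ATP5MC1 relative to both others differed by a log2 value of -0.13 (-0.26 to -0.00014), an interval that reached almost to 0.

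**Figure D2:**
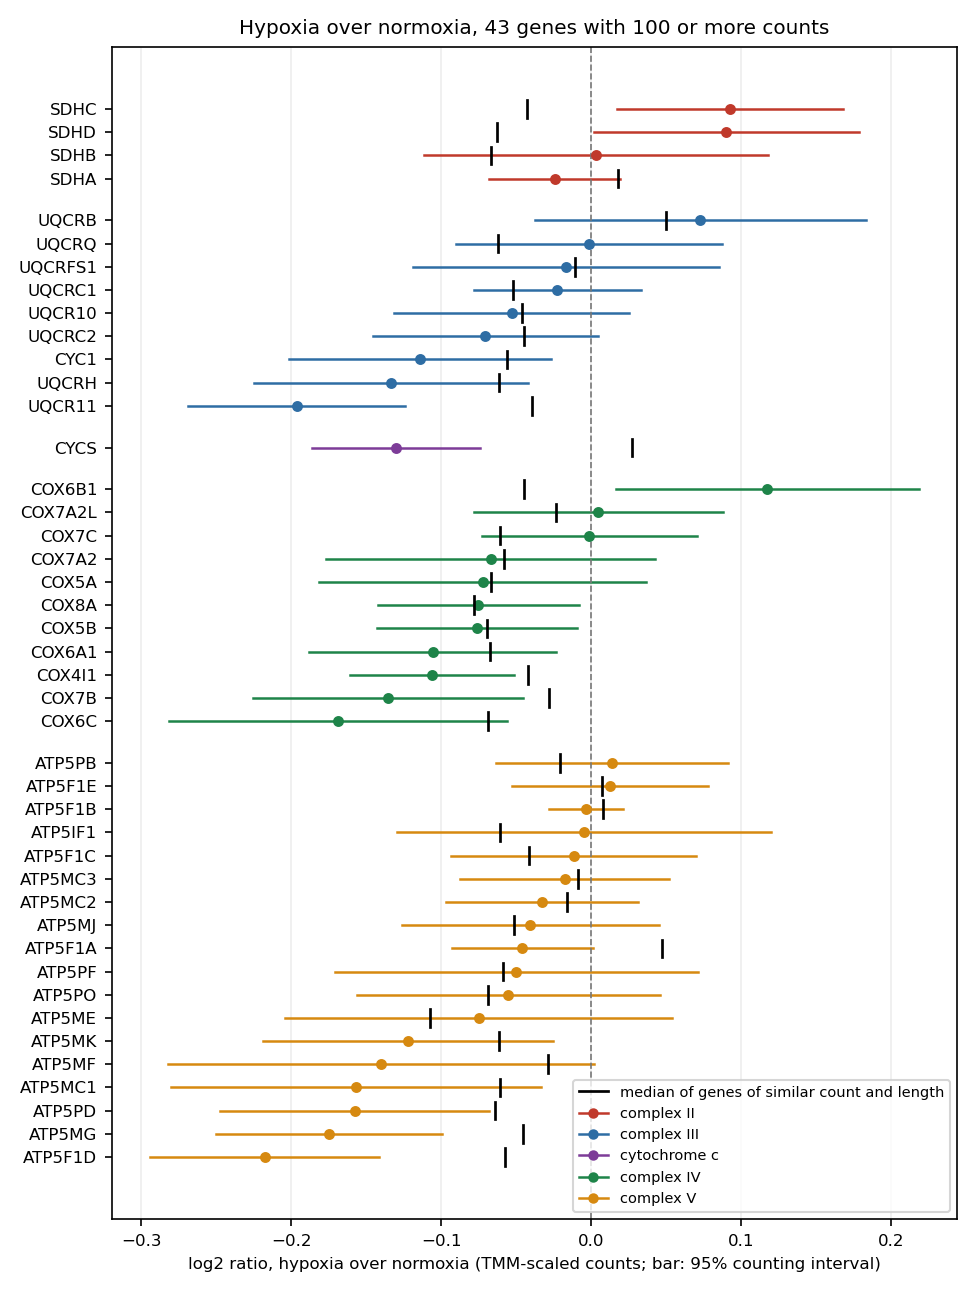
Log2 ratio of hypoxia to normoxia for the 43 members with 100 or more counts in both libraries, with the 95% counting interval as a bar and the median of genes of similar count and length as a black tick. SDHC, SDHD and COX6B1 have bars wholly above 0, 15 genes have bars wholly below 0, and most ticks lie below 0 as well (the tick rests on 17, 14 and 1 genes for COX8A, ATP5MF and ATP5ME).

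The members are short, and short genes of other kinds were lower in hypoxia too. The median length implied by counts and FPKM was 1173 bases for the tested members and 4007 for all tested genes. Among 10696 other genes that reached 100 counts in each library, the median log2 ratio was -0.06 for lengths of 500 to 750 bases, -0.07 for 750 to 1000, -0.06 for 1000 to 1500, -0.03 for 2000 to 3000, 0.02 for 4000 to 6000 and 0.05 above 6000. Across these genes the log2 ratio and log2 length had a Spearman rho of 0.26, and across the 43 well-counted members of 0.34. Genes of 1 library pair share depth and RNA quality, so these values only describe the libraries.

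**Figure D3:**
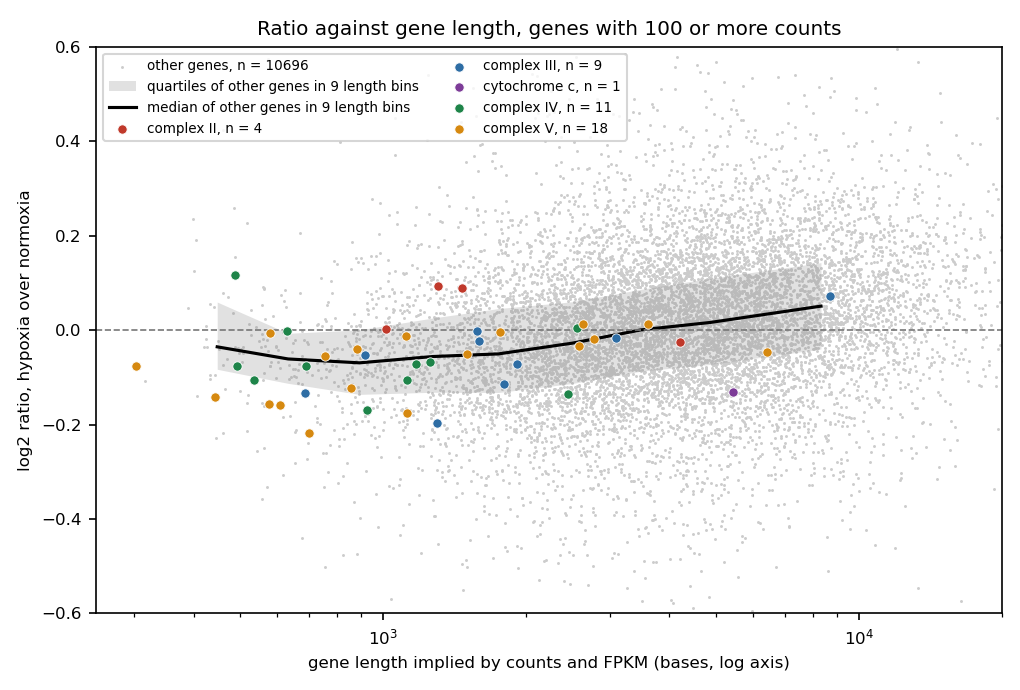
Log2 ratio of hypoxia to normoxia against the length implied by counts and FPKM (bases, log axis) for genes that reached 100 counts in each library; grey points are 10696 other genes, with their median (line) and quartiles (band) in 9 length bins, and coloured points are the 43 members. Other genes beyond a log2 ratio of 0.6 either way or outside the length axis are not drawn; most members lie on the part of the line that runs below 0.

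Each member was therefore set beside the tested genes with counts within 2-fold and lengths within 25% (as a ratio) of its own, members excluded. The medians of these similar genes had themselves a median of -0.05, and the members differed from them by a median of -0.0091, with 27 members below and 18 above. By complex the median difference was 0.10 for complex II, -0.02 for complex III, -0.0081 for complex IV and -0.010 for complex V. These small differences moved with the limits of similarity: matched by length alone, complex V was above its similar genes by 0.0036 (8 members below and 10 above) and complex IV below by a difference of -0.03, and with the narrower limits of 1.5-fold in count and 1.1-fold in length the median over all members was -0.016. Complex II stayed at 0.10 under each, but this is a median of 4 genes of which 3 lay above their similar genes and 1 below. With the first limits SDHA, the deepest of them, differed by -0.04, and the interval of SDHB included the median of its similar genes. The lower ratios of complexes III, IV and V were thus close to those of other genes of their count and length. For 41 members at least 20 similar genes were found. Of these, 13 lay below the lower quartile of their similar genes and 5 above the upper quartile, where 25% in each tail is the share by definition.

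Among the 41, 8 had a counting interval wholly below the median of their similar genes, and 3 wholly above it. Among other tested genes set beside their own similar genes in the same way, 13.1% lay wholly below and 13.5% wholly above. At 1000 or more counts in each library the shares were 19.5% below and 18.9% above for 4096 other genes, and 20% below (8 of 40) and 7.50% above (3 of 40) for the members. At like depth the share of members below their similar genes was thus near that of other genes. Those above were the complex II anchors SDHC and SDHD and the complex IV subunit COX6B1. COX6B1 exceeded its 26 similar genes by 0.16, SDHD its 297 by 0.15 and SDHC its 196 by 0.14. Those below were UQCR11, CYCS, COX4I1, COX7B, ATP5F1A, ATP5PD, ATP5MG and ATP5F1D. ATP5F1D differed from the median of its 50 similar genes by -0.16, UQCR11 from that of 179 by -0.16, CYCS from that of 319 by -0.16 and ATP5MG from that of 149 by -0.13. CYCS and ATP5F1A have implied lengths of 5432 and 6401 bases, and the similar genes of both had medians above 0, at 0.03 and 0.05.

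Genes that build or tune the complexes were described beside the members. The 43 tested assembly factors of complexes II to V had a median log2 ratio of -0.05, with 15 above 0 and 28 below, and 1 interval wholly above 0 and 3 below. Across all tested genes 15.0% had an interval wholly above 0 and 14.0% wholly below, so few assembly factors were called in either direction. LRPPRC, which stabilises mitochondrial transcripts, was the 1 above, with 5277 counts in hypoxia against 4598 in normoxia, at a log2 ratio of 0.11 (0.05 to 0.16). The 3 below were the complex IV assembly factors COX14 at -0.25, COX19 at -0.25 and COA7 at -0.18. COX14, which stabilises newly made COX1, had 714 counts in hypoxia against 799 in normoxia. COX10, which makes the precursor of haem A, was at -0.04. For complex II the assembly factors ran from SDHAF1, which helps insert iron-sulfur clusters, at -0.19 to SDHAF4, which binds SDHA, at 0.18. For complex III they ran from C12orf73 at -0.28 to BCS1L, which inserts the Rieske protein, at 0.10. The highest factor for complex IV was COA5 at 0.13, and those for complex V ran from TMEM242 at -0.17 to ATPAF1, which binds the beta subunit, at 0.06. The intervals of these 7 genes included 0.

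The 5 tested genes that link complex IV to oxygen supply had a median log2 ratio of 0.02. C15orf48, a paralogue of NDUFA4 that replaces it in complex IV, alone among them had a ratio of 1.2 or more with an interval excluding 1, with 132 counts in hypoxia against 85 in normoxia, which is 0.54 (0.14 to 0.95) on the log2 scale. NDUFA4, a subunit of complex IV first assigned to complex I, had 4435 counts in hypoxia against 4425 in normoxia, at a log2 ratio of -0.09 (-0.15 to -0.03). NDUFA4L2, a known target of hypoxia-inducible factors, had 5 counts in hypoxia against 12 in normoxia and was under the filter. LONP1, the matrix protease known to degrade COX4I1 in hypoxia, was at 0.02 with 3355 counts in hypoxia against 3109 in normoxia. HIGD1A, which binds complex IV, was at 0.03 with 1827 counts in hypoxia against 1678 in normoxia.

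Among 11 tested regulators of these genes the median log2 ratio was -0.07, with 1 interval wholly above 0 and 3 below. The shares across all tested genes were 15.0% above and 14.0% below. YY1, a zinc finger factor, had 3905 counts in hypoxia against 3379 in normoxia, which is 0.12 (0.05 to 0.18) on the log2 scale. TFB2M, which opens mitochondrial promoters, had 804 counts in hypoxia against 897 in normoxia, at a log2 ratio of -0.25 (-0.39 to -0.11). The nuclear receptor ESRRA at -0.20 and the mitochondrial RNA polymerase POLRMT at -0.18 were lower as well. GABPA at 0.12, NRF1 at -0.08, TFAM at -0.0082 and TFB1M at 0.19 had intervals that included 0. PPARGC1A, the coactivator that drives mitochondrial biogenesis in other tissues, had 1 count in each library. Of the carriers that exchange ATP and phosphate, SLC25A4 was lowest at -0.16 and SLC25A3 highest at -0.01.

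**Figure D4:**
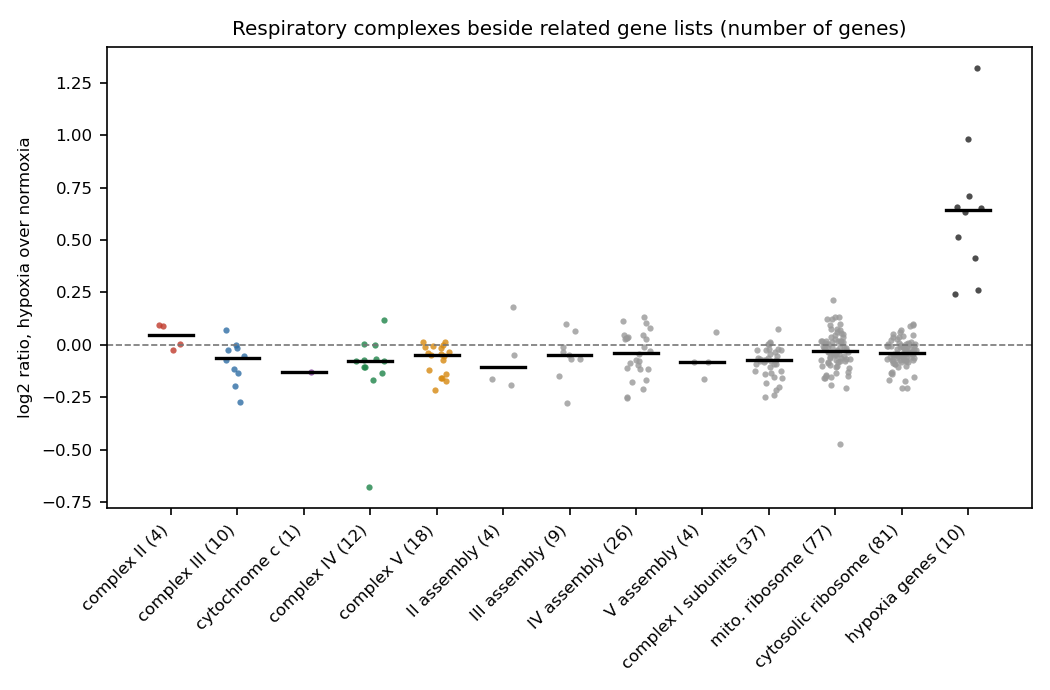
Log2 ratio of hypoxia to normoxia for each tested gene of complexes II to V and of related lists, with the list median as a bar and the number of genes in brackets. The medians of all lists lie between -0.13 (cytochrome c) and 0.05 (complex II) except that of the hypoxia genes at 0.64.

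Other lists of short, abundant genes had medians of the same sign. The 37 genes of complex I, which passes electrons from NADH to ubiquinone, had a median log2 ratio of -0.07, with 32 below 0, 11 intervals wholly below and none above. Of all tested genes 49.3% lay below 0, and 14.0% had an interval wholly below and 15.0% wholly above. The 77 tested genes of the mitochondrial ribosome had a median of -0.03 with 49 below 0, and the 81 of the cytosolic ribosome a median of -0.04 with 62 below 0. The plot of these lists shows complex II as the only respiratory complex of the 5 with a median above 0, on 4 genes, and no test of this difference between cultures was possible.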

How the data were processed

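RNA-seq was run on 1 library of hypoxic and 1 of normoxic H1975 cells. The miRNA-seq libraries were not used here. Libraries came from TRIzol extracts and the TruSeq Stranded mRNA LT kit, per the labels' protocols. HISAT2, HTSeq, Cufflinks, Bowtie and Trimmomatic, with no version or role, and the build GRCh38 are listed per the submitters' processing notes. The values are whole read counts per gene for 15562 genes, as the authors deposited them. The authors also deposited FPKM, which equalled the counts divided by the table total and a gene length, and the implied lengths fell within 0.01 bases of a whole number in 100% of counted genes.

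Counts were scaled by TMM in edgeR 4.0.16 (R 4.3.3), and a gene was tested when either library reached a CPM of 1. Ratios with exact conditional (Clopper-Pearson) 95% counting intervals were made with scipy 1.17.1, pandas 2.3.3, numpy 2.4.6 and Python 3.11.15, and figures with matplotlib 3.10.9. An edgeR quasi-likelihood test needs replicates, which 1 library per group does not give, so a gene was called by the size of its ratio (1.2 or 2) with an interval excluding 1. Intervals cover counting error only, since without molecular identifiers PCR copies of a molecule are counted again. The exact 95% upper limit for a count of 0 was 3.69 counts. At these depths 1 read was worth 0.0530 CPM in hypoxia and 0.0565 in normoxia. Lengths were those implied by counts and FPKM. Entrez identifiers of 15526 genes matched RefSeq for GRCh38.p14, which gave coordinates, pseudogene names and start windows. The procedure was tested on simulated data.

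Alternatives were scaling by upper quartile, by total counts or by DESeq2 1.42.0, no filter or a CPM of 5, FPKM with a pseudocount of 1 or 0.1, subtraction of the median of similar genes with or without cytosolic ribosomal protein genes, leaving out members with annotated copies, and other limits for similar genes. The members, gene lists and alternatives were chosen with earlier results of these data known. Named in full were, per complex, the highest and lowest member with 100 or more counts in both libraries, members called by size or under the filter, isoform pairs, CYCS, ATP5IF1 and COX7A2L. Of related lists the extreme genes were named, with LONP1, NDUFA4, NDUFA4L2, HIGD1A, COX10, TFAM and PPARGC1A. Other genes with values were chosen after their values were seen.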

Additional observations from a re-analysis of the deposited data

How the results depend on the processing

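The first alternatives were DESeq2 size factors, total counts, upper quartile scaling and a filter at a CPM of 5. Members with 100 or more counts only were also used, a step chosen after seeing the data. Under these every median, summed ratio and count of members kept its direction. Summed ratios stayed within their counting intervals and counts within 1.5 times. Medians stayed within the interval of the summed counts moved to the median, which is not an error of a median over genes. The number of intervals wholly below 0 ran from 15 to 18 under the scalings. With no filter the median of all members was -0.067. With FPKM and a pseudocount of 1 or 0.1, the log2 ratio of summed levels was -0.071 for all members under either pseudocount. It was -0.094 for complex III and -0.078 for complex V. FPKM weights short genes more and is also scaled to library totals in place of TMM. Total counts without FPKM gave -0.058 for all members, and the parts of length and scaling were not tested. Subtracting the median of similar genes gave medians of -0.0091 for all members, 0.10 for complex II, -0.016 for complex III, -0.0081 for complex IV and -0.010 for complex V. It left 9 intervals wholly below 0 and put 1 member (UQCRHL, on 16 similar genes) at 1.2-fold or more lower. Without cytosolic ribosomal protein genes among the similar genes the values were -0.0080, 0.10, -0.016, -0.0086 and -0.0020, with the same counts of 9 and 1. Of the members below 0, 10 lay above 0 once the median of similar genes was subtracted, and 0 moved the other way, so that 18 members in place of 8 lay above. In 9 of the 10 the interval had included 0, and COX8A was the exception, at 0.0031 with and 0.020 without those genes. Leaving out members with annotated copies removes most members, among them every member with an interval wholly above 0. It left 4 intervals below 0, 0 above and 11 members below 0, with summed ratios of -0.072 for all members and -0.081 for complex V. In counts in place of FPKM, shares within a family were 0.806% in hypoxia and 1.39% in normoxia for COX6B2, 0.0741% in normoxia for COX7A1, 12.4% and 13.4% for ATP5MC1, 47.5% and 47.2% for ATP5MC2, and 40.1% and 39.4% for ATP5MC3. Without SDHA, a step chosen after seeing the data, complex II relative to the other members was 0.129. The cause of the other shifts was not tested. No paired analysis was possible because each group has 1 library. The single library per group limits every value.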

Other observations

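Several members share a start region with a gene on the other strand, a set looked for after the ratios had been seen. For 12 members a protein-coding gene starts within 1000 bases on the opposite strand, and 11 of these partners passed the filter. The partners' intervals all included 0 (0 of 11 excluded it), as did those of 70.9% of all tested genes. Of the 11 partners 10 had fewer counts than their member in both libraries, and so wider intervals. The 4 members whose intervals lay wholly below 0 are given with their partners. UQCRH, the hinge subunit, was at a log2 ratio of -0.13 (-0.22 to -0.04), and LRRC41, whose start lies 82 bases away, had 1516 counts in hypoxia against 1342 in normoxia, which is 0.08 (-0.02 to 0.19) on the log2 scale. ATP5MK was at -0.12 (-0.22 to -0.03) and its partner PDCD11, a ribosome biogenesis factor, at 0.07 (-0.0042 to 0.14). COX4I1 was at -0.11 (-0.16 to -0.05) and its partner EMC8 at -0.03 (-0.16 to 0.11), an interval that contains the value of COX4I1. ATP5PD was at -0.16 (-0.25 to -0.07) and its partner KCTD2 at -0.03 (-0.16 to 0.10). ATP5PF shares its start region with GABPA, the DNA-binding part of GABP, at a distance of 68 bases. GABPA had 450 counts in hypoxia against 389 in normoxia, at a log2 ratio of 0.12 (-0.08 to 0.32), and ATP5PF was at -0.05 (-0.17 to 0.07). The annotated spans of ATP5PD and KCTD2 overlap, as do those of ATP5PF and GABPA, so reads of these pairs could not be told apart. The 4 pairs were picked by a low value of the member, which favours members below their partners. Member and partner were not compared by a test.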
